A study of Mus musculus with 24 samples.

Results

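Cathepsins are the proteases of the lysosome, and the transcripts of 9 of them and of their secreted inhibitor cystatin C were followed in bone marrow-derived macrophages (BMDMs). The 10 genes, taken by symbol from a table of 35770 gene names, were Ctsa, Ctsb, Ctsc, Ctsd, Ctsh, Ctsk, Ctsl, Ctss, Ctsz and Cst3, and all 10 were expressed well enough to be tested. The macrophages were grown from C57BL/6 marrow with 20 ng/mL M-CSF, the growth factor that drives marrow progenitors into macrophages. They were then held for 24 h in control media or in 75% conditioned media (CM) from LL2 cells, a Lewis lung carcinoma line of the same mouse strain, which had been collected over 48 h. The LL2 cells were wild type (WT), KEAP1 knockout (KO) or NRF2 KO. The edited genes were those of the cancer cells, and the macrophages carried no edit in any group. KEAP1 is the adaptor that marks the transcription factor NRF2 for degradation, and CDDO-Me (bardoxolone methyl) is a synthetic oleanane triterpenoid that binds KEAP1 and activates NRF2. Vehicle or 100 nM CDDO-Me was added to each of the 4 media, which gave 8 groups with 3 libraries each and 24 libraries in all. Groups are written as medium/treatment, so that WT/vehicle stands for BMDMs in WT CM with vehicle. Whether the 3 libraries of a group came from separate mice is not stated, so p-values measure the spread between these samples. The sample names carry K3F10 for the KEAP1 KO line and N1D8 for the NRF2 KO line, and whether either line is a single clone is not stated.

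Cathepsins are made as inactive precursors, carried to the lysosome mostly by mannose-6-phosphate receptors and activated there by the low pH. Most are cysteine proteases of the papain family (B, C, H, K, L, S and Z), whereas cathepsin D is an aspartic protease and cathepsin A a serine carboxypeptidase. In macrophages they digest engulfed material, cut the invariant chain off MHC class II molecules, and are partly secreted, where they degrade matrix. Cystatin C, the product of Cst3, blocks the cysteine cathepsins and leaves cathepsins A and D untouched.

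The 10 genes lie on 6 chromosomes of GRCm39, the build the authors used, and all are annotated as protein coding. Ctsa (chr2:164674778-164682961, plus strand), Ctsz (chr2:174267304-174280832, minus strand) and Cst3 (chr2:148713635-148717887, minus strand) share chromosome 2. Ctsk (chr3:95406178-95416732) and Ctss (chr3:95433963-95463717) are neighbours on the plus strand of chromosome 3, with 17230 bases between them. Ctsc (chr7:87927092-87960096, plus strand) and Ctsd (chr7:141929646-141941775, minus strand) lie far apart on chromosome 7. Ctsh is at chr9:89936205-89958148 (plus strand), Ctsl at chr13:64507151-64518704 (minus strand) and Ctsb at chr14:63358384-63383372 (plus strand).

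Promoter sequence was read from RefSeq for 8 of the 10 genes, as the 250 bases before and 50 bases after each start. Ctsb and Ctsh were not matched. 3 motifs were searched on both strands. CACGTG is the palindromic E-box bound by TFEB and its relatives, the regulators of lysosome genes, and by other E-box factors. The core of the interferon-stimulated response element, bound by IRF factors, is a pair of GAAA runs with any 2 bases between them. TGACNNNGC is the core of the antioxidant response element bound by NRF2. CACGTG stood in Ctsa, Ctsd and Ctsl, 3 of the 8 genes, against 8.09% of 27025 genes with a promoter in the same table. The interferon-stimulated core stood in Ctss alone (3.99% of all genes), and TGACNNNGC stood in Ctsd and Ctsz (14% of all genes). No match of one motif overlapped a match of another in the stretches shown, and a match is a run of letters, not a site shown to be bound. The runs of 30 bases printed here show the upstream matches, in capitals, of each gene that holds one. They are written 5′ to 3′ on the gene's own strand. The RefSeq table is on GRCm38.p6, so the positions are those of an exact match of its sequence to GRCm39.
Ctsa, chr2:164675663-164675692, E-box: gaacaatgagcaaactgtCACGTGatgcag
Ctsd, chr7:141941785-141941814, E-box: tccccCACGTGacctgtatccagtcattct
Ctsd, chr7:141941645-141941674, E-box: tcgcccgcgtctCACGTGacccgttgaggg
Ctsl, chr13:64518553-64518582, E-box: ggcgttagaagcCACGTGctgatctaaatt
Ctss, chr3:95434066-95434095, IRF core: gtctttaaatGAAACCGAAAtgaaagttca
Ctsd, chr7:141941608-141941637, NRF2 core: agcgggtcagcTGACTCCGCgggactgcgg
Ctsz, chr2:174280946-174280975, NRF2 core, on the opposite strand: aatggctggtgGCACTGTCAggtctggggt
The Ctsa match began 12 bases before the second of its 2 listed starts and the Ctss match 21 bases before its start. The Ctsd E-boxes began 245 and 98 bases before the start and its NRF2 core 62 bases before it. The Ctsl match began 236 bases and the Ctsz match 132 bases before the start. The Ctsz stretch and the farther Ctsd E-box overlapped no annotated exon, while the other stretches overlapped an exon of some transcript of the same gene.

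Values are taken as TPM, each gene's share of the transcripts of its library, corrected for transcript length and scaled to a fixed total. The deposited values are named as counts, and a fixed total alone does not show that they are TPM. Comparisons of levels between genes, and the ranks, sums and shares given here, rest on that reading. Cathepsins were among the most abundant transcripts of these cells. By mean TPM over the 24 libraries Ctsb ranked 6, Ctsd 7 and Ctss 11 among the 35770 names, followed by Cst3 (43), Ctsl (105), Ctsz (107), Ctsa (154), Ctsc (242), Ctsh (290) and Ctsk (3724). Together the 10 genes made up 3.85% of all TPM in media/vehicle. In bulk samples fewer cells of a type and less RNA per cell cannot be told apart.

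2 libraries stood apart and bear on every comparison with NRF2 KO CM. NRF2 KO/vehicle replicate 3 and NRF2 KO/CDDO-Me replicate 3 had 15702 and 16299 genes above 0, against 17817 to 18993 in the other 22 libraries. In NRF2 KO/vehicle the Ctsb levels were 12227, 11133 and 4019.6 TPM and the Ctsd levels 12039, 11819 and 4031 TPM, so that replicate 3 was far below the other two for both. Because all groups share 1 estimate of the spread, these libraries also widen the errors of the other groups for Ctsb and Ctsd, and the calls that change without them are given in each comparison. Markers of macrophages were high in every group, with all 10 of 10 tested and a summed level of at least 15412 TPM in each library. Of the 8 neutrophil genes, Retnlg was at 0 in every library of both WT CM and both KEAP1 KO CM groups, and Ly6g reached 0.989 TPM at most. The 8 genes together summed to 10.9 to 34.2 TPM in WT/vehicle and 33.0 to 57.4 TPM in WT/CDDO-Me. In KEAP1 KO CM they summed to 15.4 to 24.4 TPM with vehicle and 64.7 to 72.8 TPM with CDDO-Me.

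**Figure D1:**
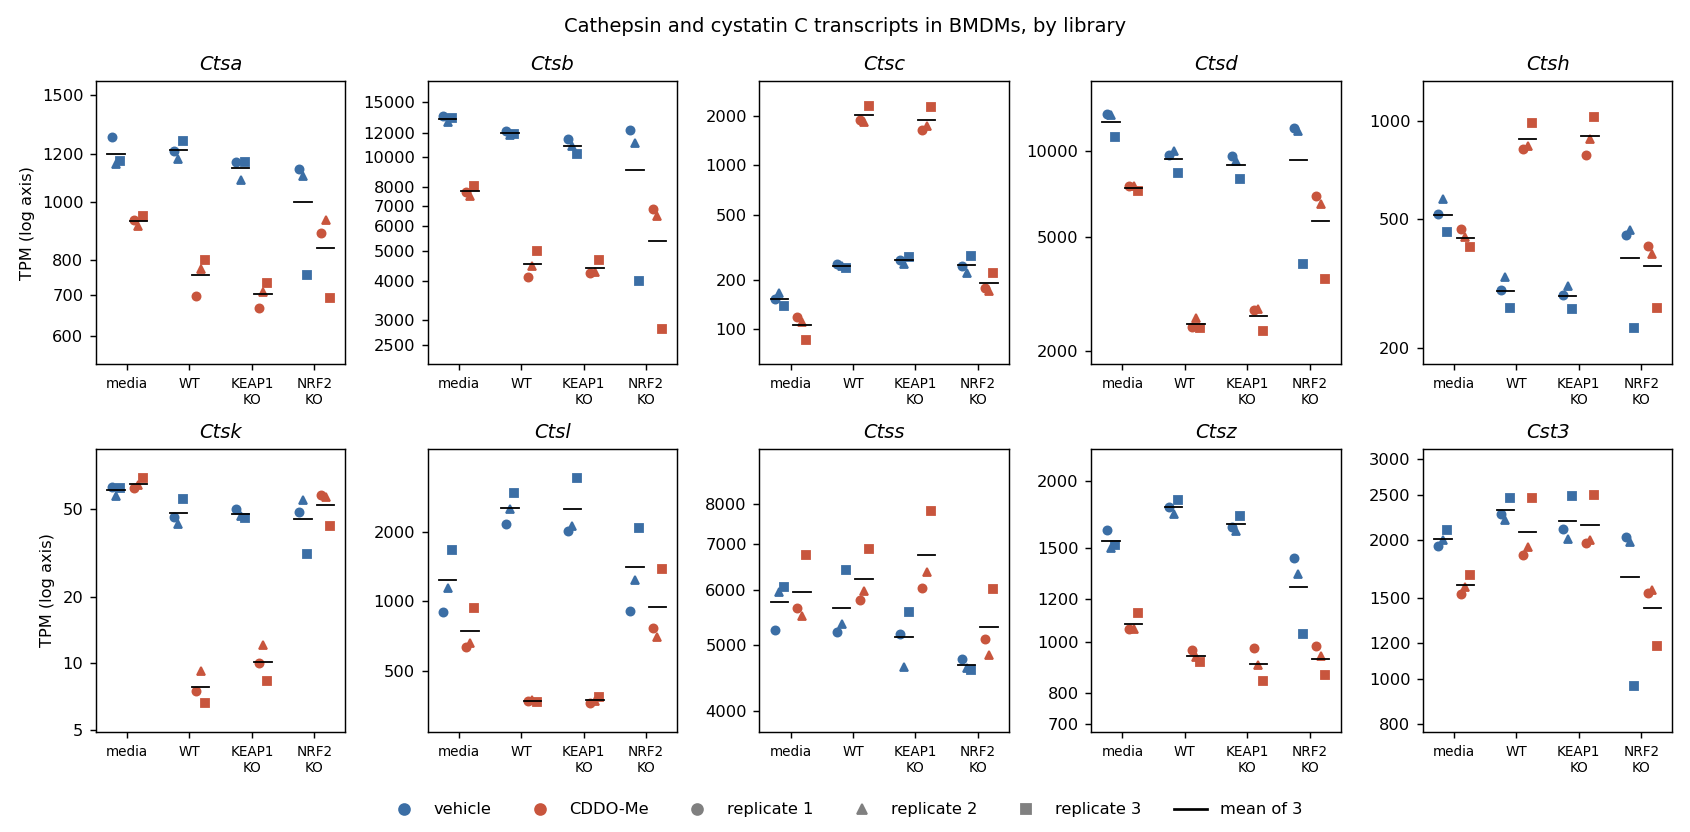
TPM of each of the 10 genes on a log axis, by medium (horizontal axis), with vehicle in blue and CDDO-Me in red, 1 symbol shape per replicate number and the mean of 3 libraries as a bar. With CDDO-Me, Ctsc averages 2027 TPM in WT CM and 1894 TPM in KEAP1 KO CM and Ctsk 7.79 and 10.2 TPM, and the squares of NRF2 KO CM lie far below the other 2 replicates for Ctsb and Ctsd.

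The main comparison asked what CDDO-Me did to cathepsin transcripts in macrophages held in cancer CM. In WT CM, 8 of the 10 genes changed (2 higher and 6 lower), where 27.9% of all 13661 genes tested changed (14.5% higher and 13.4% lower). In KEAP1 KO CM, 9 of the 10 changed (3 higher and 6 lower), where 28.8% of all genes did (14.5% higher and 14.3% lower). Ctsc and Ctsh rose and Ctsl, Ctsk, Ctsd, Ctsb, Ctsz and Ctsa fell in both media. The median log2 change of all genes tested was -0.012 in WT CM and -0.02 in KEAP1 KO CM, which scaling sets near 0. Without scaling that median was -0.12 and -0.17. Fold changes are differences of log2(TPM + 1) after TMM scaling, tested with limma and adjusted over all genes tested by the Benjamini-Hochberg method, with a threshold of 0.05. The 3 libraries of each group did not overlap for 8 of the 10 genes in WT CM and 9 of the 10 in KEAP1 KO CM, against 53.5% and 54.1% of all genes tested.

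Ctsc and Ctsh rose in both CM. Ctsc encodes dipeptidyl peptidase I, which activates the serine proteases of immune cell granules. It stood at 248, 240.5 and 235 TPM in WT/vehicle and at 1901, 1854 and 2324 TPM in WT/CDDO-Me. In KEAP1 KO CM it went from 263, 249 and 275 TPM to 1659, 1743 and 2279.9 TPM. The 6 CDDO-Me libraries of both media ran from 1659 to 2324 TPM and the 6 vehicle libraries from 235 to 275 TPM, with no overlap. The log2 fold change was 3.19 ± 0.17 (SE, adjusted p = 1.5e-11) in WT CM, a 9.13-fold rise, and 3.00 ± 0.17 (SE, adjusted p = 3.7e-11) in KEAP1 KO CM, an 8.02-fold rise. Ctsc was the member with the widest range, 19.3-fold between its highest and lowest group means.

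Ctsh encodes a cathepsin that acts mostly as an aminopeptidase. It measured 303, 331 and 266 TPM in WT/vehicle and 818, 838 and 983 TPM in WT/CDDO-Me. In KEAP1 KO CM the values were 291, 310.4 and 264 TPM with vehicle and 785, 876 and 1023 TPM with CDDO-Me. The CDDO-Me libraries lay above all vehicle libraries of the same medium. The log2 fold change was 1.68 ± 0.18 (SE, adjusted p = 5.5e-07) in WT CM and 1.79 ± 0.18 (SE, adjusted p = 2.4e-07) in KEAP1 KO CM. Ctss, whose product trims the invariant chain in antigen-presenting cells, read 5173, 4642 and 5576 TPM in KEAP1 KO/vehicle and 6047, 6366 and 7813 TPM in KEAP1 KO/CDDO-Me. It rose in KEAP1 KO CM by 0.56 ± 0.17 (SE, adjusted p = 0.014). In WT CM the value was 0.27 ± 0.17 (SE, adjusted p = 0.27) with a 95% interval of -0.081 to 0.62. With replicate number blocked Ctss was called higher in WT CM too, at 0.27 (limma, adjusted p = 0.043). With the libraries weighted (array weights) it was also called there, at 0.31 (limma, adjusted p = 0.012). Whether the change in Ctss differed between these 2 media was not tested. The call in KEAP1 KO CM was lost without KEAP1 KO/vehicle replicate 2 or KEAP1 KO/CDDO-Me replicate 3, when the log2 change of Ctss was 0.47 and 0.41. With the mean of fibroblast marker genes as a covariate Ctss was at 0.30 in KEAP1 KO CM and still called. In WT CM it was then at 0.050 and not called.

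Ctsl and Ctsk had the largest falls. Ctsk encodes the collagen-degrading cathepsin K of osteoclasts, and it was the least abundant of the 10. It was at 46.0, 42.8 and 55.2 TPM in WT/vehicle and at 7.51, 9.26 and 6.6 TPM in WT/CDDO-Me. With KEAP1 KO CM it was at 49.96, 46.5 and 45.4 TPM with vehicle and 10.1, 12.2 and 8.34 TPM with CDDO-Me. The highest CDDO-Me library of either medium was thus well under the lowest vehicle library. The log2 fold change was -2.37 ± 0.15 (SE, adjusted p = 3.3e-10) in WT CM and -1.96 ± 0.15 (SE, adjusted p = 5.3e-09) in KEAP1 KO CM, and on the log2(TPM + 1) scale the fall of so low a gene is understated. Ctsl, an endopeptidase of broad reach that also trims the invariant chain, read 2168, 2529 and 2967 TPM in WT/vehicle and 367, 374 and 367 TPM in WT/CDDO-Me. Under KEAP1 KO CM it read 2029, 2127 and 3427 TPM with vehicle and 362, 368 and 384 TPM with CDDO-Me. The 6 CDDO-Me libraries lay within 362 to 384 TPM, although the 6 vehicle libraries ran from 2029 to 3427 TPM. The log2 fold change of Ctsl was -2.64 ± 0.33 (SE, adjusted p = 2.6e-06) in WT CM and -2.55 ± 0.33 (SE, adjusted p = 4.1e-06) in KEAP1 KO CM.

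The bulk proteases of the lysosome fell as well. Ctsd, the aspartic protease, went from 9727, 10056 and 8416 TPM in WT/vehicle to 2428, 2604 and 2412 TPM in WT/CDDO-Me. In KEAP1 KO CM the values were 9605, 9279.6 and 7986 TPM and 2780.1, 2801 and 2351 TPM. The log2 fold changes were -1.79 ± 0.27 (SE, adjusted p = 3e-05) and -1.59 ± 0.27 (SE, adjusted p = 0.00011), and the vehicle and CDDO-Me libraries were apart in both media. Ctsb, a cysteine protease with both endopeptidase and dipeptidase activity, was at 12128, 11768 and 11884 TPM in WT/vehicle and 4136, 4474 and 5020.0 TPM in WT/CDDO-Me. In KEAP1 KO CM it was at 11406, 10886 and 10268 TPM and 4245, 4281 and 4696 TPM. The log2 fold changes were -1.27 ± 0.29 (SE, adjusted p = 0.0025) and -1.13 ± 0.29 (SE, adjusted p = 0.0058), which put the CDDO-Me level at 0.416 and 0.457 times the vehicle level.

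Smaller falls were seen for the carboxypeptidases. Ctsz, a carboxypeptidase, measured 1787, 1736 and 1841 TPM in WT/vehicle and 963, 935 and 916 TPM in WT/CDDO-Me, a log2 change of -0.80 ± 0.10 (SE, adjusted p = 3.8e-06). The KEAP1 KO CM log2 fold change of Ctsz was -0.70 ± 0.10 (SE, adjusted p = 1.8e-05). Ctsa, which also protects the lysosomal enzymes neuraminidase 1 and beta-galactosidase, measured 1211, 1178 and 1261 TPM in WT/vehicle and 699, 773 and 800.0 TPM in WT/CDDO-Me. Its log2 fold changes were -0.55 ± 0.12 (SE, adjusted p = 0.0011) and -0.52 ± 0.12 (SE, adjusted p = 0.0017). Cst3, the inhibitor, read 2282, 2207 and 2467 TPM in WT/vehicle and 1853, 1929 and 2464 TPM in WT/CDDO-Me, ranges that overlap. Its log2 fold change was -0.034 ± 0.20 (SE, adjusted p = 0.94) in WT CM (95% interval -0.46 to 0.39) and 0.14 ± 0.20 (SE, adjusted p = 0.69) in KEAP1 KO CM (95% interval -0.29 to 0.56).

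**Figure D2:**
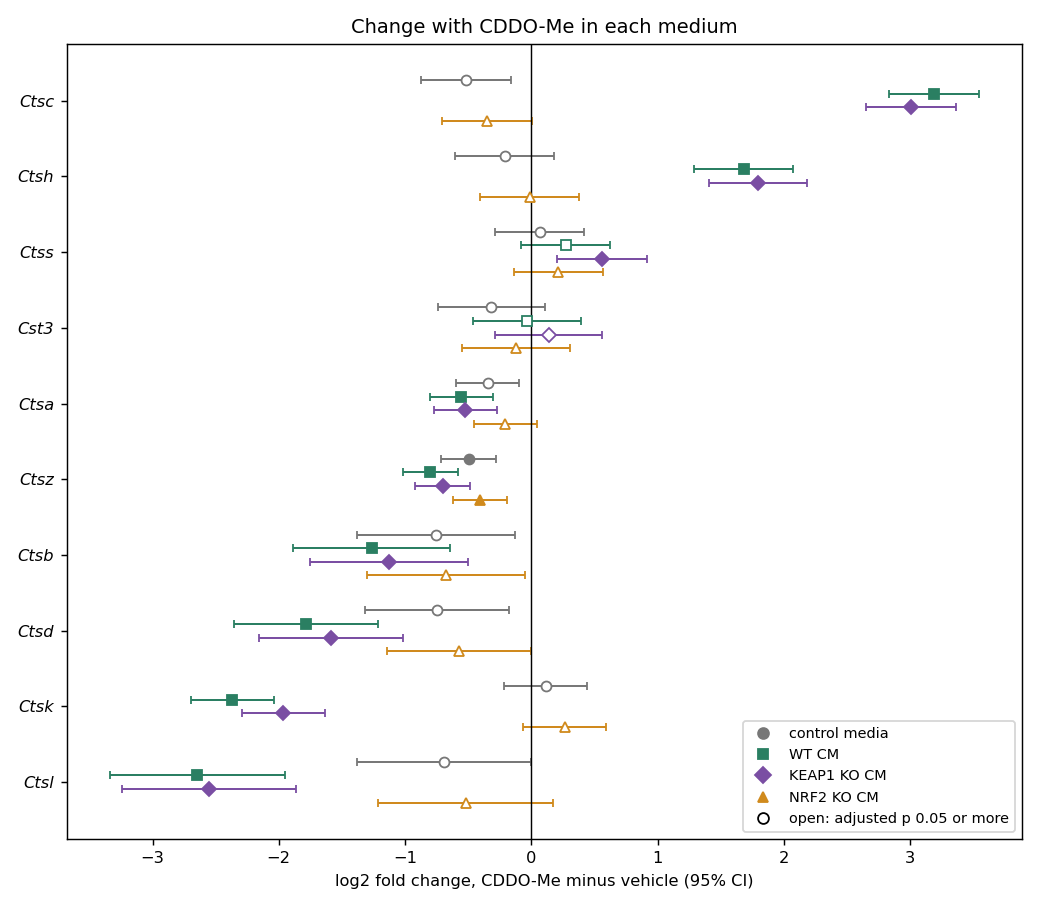
Log2 fold change of each gene with CDDO-Me against vehicle, with 95% confidence intervals, in the 4 media, where filled symbols passed an adjusted p of 0.05. Ctsc reaches 3.19 in WT CM and Ctsl -2.64, while the symbols for control media and NRF2 KO CM stay between -0.75 and 0.26.

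In control media fewer of the 10 genes passed with CDDO-Me. There 1 of the 10 genes passed, Ctsz, which was lower, where 6.02% of all genes tested changed (3.23% higher and 2.79% lower). Ctsz was at 1621, 1496 and 1521 TPM in media/vehicle and 1057, 1058 and 1129 TPM in media/CDDO-Me, a log2 change of -0.50 ± 0.10 (SE, adjusted p = 0.004). Ctsb was at 13524, 13002 and 13361 TPM with vehicle and 7731, 7534 and 8081 TPM with CDDO-Me, with a log2 change of -0.75 ± 0.29 (SE, adjusted p = 0.17). Ctsd was at 13472, 13369 and 11227 TPM with vehicle and 7572, 7544 and 7249 TPM with CDDO-Me, with a log2 change of -0.74 ± 0.27 (SE, adjusted p = 0.13). The libraries of both groups were apart for these genes, and the 9 uncalled genes ran from -0.75 for Ctsb to 0.11 for Ctsk. The groups did not overlap for 6 of the 10 genes, all lower, against 31.5% of all genes tested. Without the 2 libraries that stood apart, 5 genes were lower (Ctsa, Ctsb, Ctsc, Ctsd and Ctsz), where 14.9% of all genes changed. The value of Ctsb was then -0.75 (adjusted p = 2.1e-05) and that of Ctsd -0.74 (adjusted p = 7.2e-06). In control media same-numbered libraries deviated together, and with replicate number blocked 4 genes were lower (Ctsc, Ctsd, Ctsl and Ctsz), where 10.7% of all genes changed. Ctsc was then at -0.52 (adjusted p = 0.032) and Ctsl at -0.69 (adjusted p = 0.025).

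In NRF2 KO CM 1 of the 10 genes passed, again Ctsz and lower, where 9.61% of all genes changed (4.87% higher and 4.74% lower). Ctsz read 1436, 1336 and 1034 TPM in NRF2 KO/vehicle and 980.2, 939 and 866 TPM in NRF2 KO/CDDO-Me, with a log2 change of -0.40 ± 0.10 (SE, adjusted p = 0.013). Ctsc read 244, 220.2 and 278 TPM and 178, 170.3 and 221 TPM, which gave -0.35 ± 0.17 (SE, adjusted p = 0.24). Ctsk read 48.4, 54.7 and 31.4 TPM and 57.8, 56.4 and 41.7 TPM, which gave 0.26 ± 0.15 (SE, adjusted p = 0.37). The 9 uncalled genes ran from -0.68 for Ctsb to 0.26 for Ctsk. Neither Ctsc nor Ctsk was called, and both values had the opposite sign to those in WT CM. The Ctsz call was lost without NRF2 KO/vehicle replicate 1, or without NRF2 KO/CDDO-Me replicate 2. Without the 2 libraries that stood apart, 3 genes were lower, Ctsb at -0.78 (adjusted p = 0.00018), Ctsd at -0.79 (adjusted p = 4.6e-05) and Ctsz at -0.50 (adjusted p = 0.0018), where 9.55% of all genes changed.

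Whether the CDDO-Me change itself differed between media was tested with interaction terms. Against control media, the change in WT CM differed for 4 of the 10 genes, where 15.3% of all genes tested differed (8.59% higher and 6.73% lower). The difference of log2 fold changes was 3.71 ± 0.24 (SE, adjusted p = 7.7e-10) for Ctsc, 1.89 ± 0.26 (SE, adjusted p = 2.3e-05) for Ctsh, -2.48 ± 0.22 (SE, adjusted p = 7e-08) for Ctsk and -1.95 ± 0.46 (SE, adjusted p = 0.0056) for Ctsl. For KEAP1 KO CM against control media 4 genes differed, where 14.8% of all genes did (8.19% higher and 6.65% lower). The values were 3.52 ± 0.24 (SE, adjusted p = 1.7e-09) for Ctsc, 2.01 ± 0.26 (SE, adjusted p = 1.3e-05) for Ctsh, -2.08 ± 0.22 (SE, adjusted p = 8.2e-07) for Ctsk and -1.86 ± 0.46 (SE, adjusted p = 0.0079) for Ctsl. Between WT CM and NRF2 KO CM 5 genes differed, where 13.4% of all genes did (7.61% higher and 5.81% lower). They were Ctsc at 3.54 ± 0.24 (SE, adjusted p = 1.6e-09), Ctsh at 1.69 ± 0.26 (SE, adjusted p = 8.6e-05), Ctsk at -2.63 ± 0.22 (SE, adjusted p = 3.1e-08), Ctsl at -2.12 ± 0.46 (SE, adjusted p = 0.0029) and Ctsd at -1.21 ± 0.38 (SE, adjusted p = 0.039). The Ctsd call was lost when any library of WT/vehicle or WT/CDDO-Me, or NRF2 KO/CDDO-Me replicate 1 or 2, was left out, with values from -1.05 to -1.27 for the difference in Ctsd. Without NRF2 KO/vehicle replicate 3 the difference in Ctsd was -0.74 and still called. These comparisons share the WT CM or the control media libraries. For NRF2 KO CM against control media 0 of the 10 genes differed by limma with adjustment over all genes, and 0% of all genes did, although 358 genes had an unadjusted p under 0.05. Without the 2 libraries that stood apart Ctsb, Ctsd and Ctsz joined the genes that differed between WT CM and control media, which made 7 (28.3% of all genes), and Ctsb and Ctsd joined those of KEAP1 KO CM, which made 6 (29.1% of all genes). Ctsb joined the genes that differed between WT CM and NRF2 KO CM, at -0.49 (adjusted p = 0.024), which made 6 (21.1% of all genes). With all libraries the uncalled differences ran from -1.04 for Ctsd to 0.28 for Cst3 for WT CM against control media. For KEAP1 KO CM against control media they ran from -0.85 for Ctsd to 0.49 for Ctss. For WT CM against NRF2 KO CM they ran from -0.59 for Ctsb to 0.088 for Cst3. With replicate number blocked, Ctsd was also called for WT CM against control media, at -1.04 (limma, adjusted p = 0.025). The block also called Ctss for KEAP1 KO CM against control media, at 0.49 (limma, adjusted p = 0.016). It called Ctsz for WT CM against NRF2 KO CM, at -0.39 (limma, adjusted p = 0.034).

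**Figure D3:**
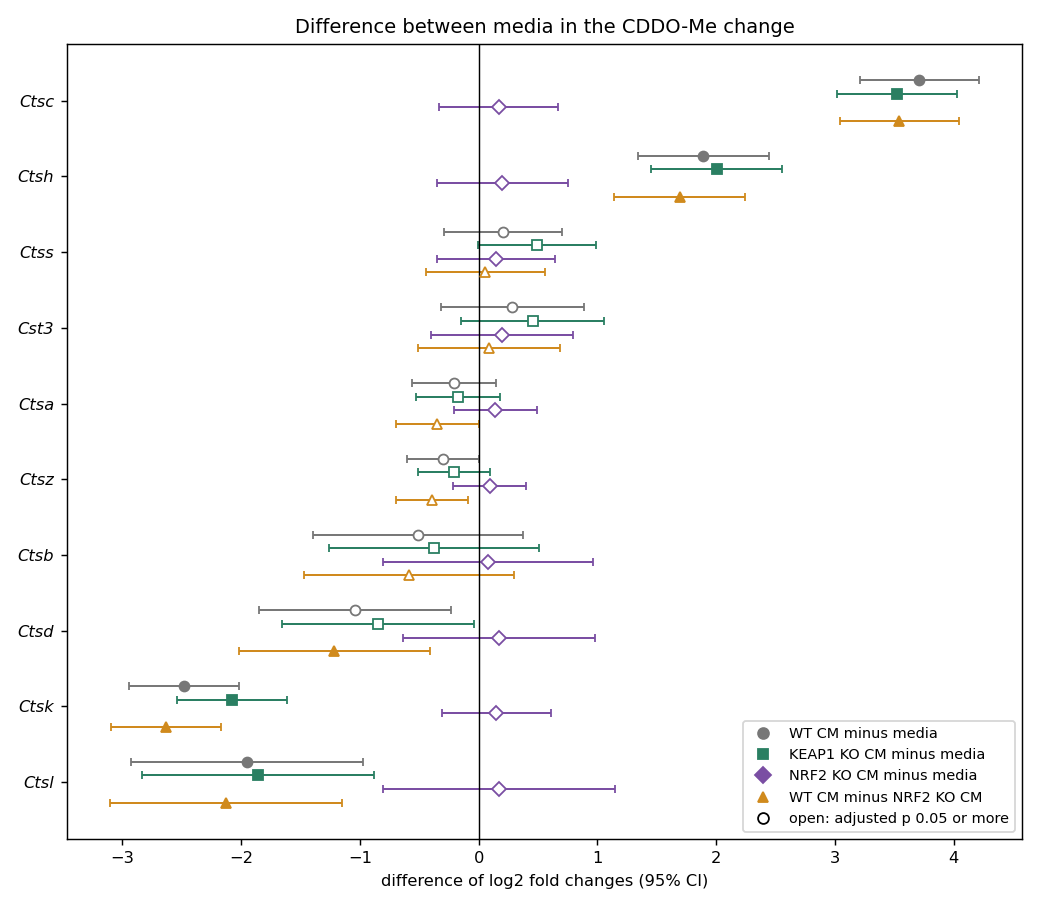
Differences between media in the log2 change with CDDO-Me, with 95% confidence intervals, where filled symbols passed an adjusted p of 0.05. The 3 comparisons with WT CM or KEAP1 KO CM place Ctsc between 3.52 and 3.71 and Ctsk between -2.08 and -2.63, whereas every interval of NRF2 KO CM minus media spans 0.

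CM alone moved fewer of these genes. In WT/vehicle against media/vehicle 3 of the 10 changed, where 7.23% of all genes did (4.38% higher and 2.85% lower). Ctsc rose from 152, 167 and 137 TPM in media/vehicle by 0.74 ± 0.17 (SE, adjusted p = 0.0083), without overlap. Ctsh fell from 515, 574 and 455 TPM in media/vehicle, with a change of -0.71 ± 0.18 (SE, adjusted p = 0.022). Ctsl rose from 896, 1141 and 1665 TPM, with a change of 1.15 ± 0.33 (SE, adjusted p = 0.035). The CDDO-Me values in WT CM had the opposite sign for Ctsh and Ctsl and the same sign for Ctsc, and both comparisons use the WT/vehicle libraries. The Ctsl call was lost without any 1 library of WT/vehicle and without media/vehicle replicate 1 or 2. The Ctsh call was lost without media/vehicle replicate 1 or 2 or WT/vehicle replicate 1 or 3, and in these 4 fits Ctsc was the only member called. In KEAP1 KO/vehicle against media/vehicle Ctsc rose, at 0.79 ± 0.17 (SE, adjusted p = 0.0044), and Ctsh fell, at -0.83 ± 0.18 (SE, adjusted p = 0.0063), which made 2 of the 10, where 8.06% of all genes changed (4.88% higher and 3.18% lower). Ctsl was at 1.04 ± 0.33 (SE, adjusted p = 0.056) there. Without the 2 libraries that stood apart 5 genes were called for WT CM (Ctsc, Ctsd, Ctsh, Ctsl and Ctsz), where 18.8% of all genes were, and 6 for KEAP1 KO CM (Ctsb, Ctsc, Ctsd, Ctsh, Ctsk and Ctsl), where 21% of all genes were. Ctsd was then at -0.36 (adjusted p = 0.0047) in WT CM and -0.50 (adjusted p = 0.00029) in KEAP1 KO CM, and Ctsl at 1.04 (adjusted p = 0.0036) in KEAP1 KO CM. In the fit of all libraries the uncalled members ran from -0.36 for Ctsd to 0.28 for Ctsz in WT CM and from -0.50 for Ctsd to 1.04 for Ctsl in KEAP1 KO CM. With replicate number blocked Ctsz was also called for WT CM, at 0.28 (adjusted p = 0.045).

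For NRF2 KO/vehicle against media/vehicle limma called 0 of the 10 genes and 0.00732% of all genes, although 1649 genes had an unadjusted p under 0.05. The Ctsc libraries of NRF2 KO/vehicle, at 244, 220.2 and 278 TPM, lay above those of media/vehicle, with a value of 0.70 ± 0.17 (SE, adjusted p = 0.41), and the lowest of the 10 values was -0.70 for Ctsb. KEAP1 KO/vehicle against WT/vehicle gave 0 called genes among the 10 and 0% of all genes, with 350 genes at an unadjusted p under 0.05. Its values for the 10 genes ran from -0.21 for Ctss to 0.052 for Ctsc. Same-numbered libraries deviated together here. After TMM scaling, Ctsa, Ctsb, Ctsd, Ctsh, Ctss, Ctsz and Cst3 lay below WT/vehicle in all 3 pairs. These were 7 of the 10 genes, against 19.7% of all genes tested. Before scaling, Cst3 in replicate 3 was at 2493 TPM in KEAP1 KO/vehicle and 2467 TPM in WT/vehicle. No member was called with replicate number blocked. Against NRF2 KO/vehicle, WT/vehicle was higher for 2 of the 10 genes, where 10.6% of all genes changed (6.84% higher and 3.76% lower). They were Ctsz at 0.58 ± 0.10 (SE, adjusted p = 0.00086) and Ctsa at 0.38 ± 0.12 (SE, adjusted p = 0.045), and the Ctsa call was lost without any 1 library of WT/vehicle or without NRF2 KO/vehicle replicate 3, when it was 0.24. KEAP1 KO/vehicle was higher for Ctsz alone, at 0.40 ± 0.10 (SE, adjusted p = 0.016), where 9.03% of all genes changed (6.16% higher and 2.87% lower), and the call was lost without KEAP1 KO/vehicle replicate 1 or 3 or NRF2 KO/vehicle replicate 3. The uncalled members ran from -0.21 for Ctsh to 1.00 for Ctsl for WT/vehicle and from -0.33 for Ctsh to 0.88 for Ctsl for KEAP1 KO/vehicle. Without the 2 libraries that stood apart, 3 genes were called for WT/vehicle against NRF2 KO/vehicle, where 15.4% of all genes were, with Ctsz still higher, Ctsl at 1.37 (adjusted p = 0.0016) and Ctsh at -0.48 (adjusted p = 0.012). Ctsa was then at 0.24 (adjusted p = 0.072), and Ctsd turned from 0.24 to -0.23 (adjusted p = 0.1). For KEAP1 KO/vehicle against NRF2 KO/vehicle 4 genes were called without them, where 13.2% of all genes were. Ctsd turned from 0.10 to -0.37 (adjusted p = 0.012), Ctsh was lower at -0.61 (adjusted p = 0.0027) and Ctsl higher at 1.25 (adjusted p = 0.0032), beside Ctsz.

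Under CDDO-Me, the media were compared with each other. Against media/CDDO-Me, WT/CDDO-Me differed for 5 of the 10 genes (3 higher and 2 lower), where 26.8% of all genes changed (14% higher and 12.8% lower). Ctsc was at 118, 111 and 85.8 TPM in media/CDDO-Me, which made a log2 change of 4.45 ± 0.17 (SE, adjusted p = 8.2e-14). Ctsk was at 61.9, 64.0 and 69.2 TPM in media/CDDO-Me, which made -2.75 ± 0.15 (SE, adjusted p = 4.2e-11). Ctsd at -1.40 ± 0.27 (SE, adjusted p = 0.00051), Ctsh at 1.19 ± 0.18 (SE, adjusted p = 5.4e-05) and Cst3 at 0.56 ± 0.20 (SE, adjusted p = 0.046) completed the set. KEAP1 KO/CDDO-Me differed from media/CDDO-Me for the same number of genes, where 22.6% of all genes changed (12.1% higher and 10.5% lower), with Ctsc at 4.31 (adjusted p = 1.4e-13), Ctsk at -2.43 (adjusted p = 2.9e-10), Ctsd at -1.35 (adjusted p = 0.00086), Ctsh at 1.18 (adjusted p = 6.8e-05) and Cst3 at 0.58 (adjusted p = 0.043). Both comparisons share the media/CDDO-Me libraries. The Cst3 call was lost without any 1 library of media/CDDO-Me or WT/CDDO-Me in the first comparison, and without media/CDDO-Me replicate 1 or 2 or KEAP1 KO/CDDO-Me replicate 1 or 3 in the second. With the mean of the fibroblast genes as a covariate it was lost in both, at 0.45 (adjusted p = 0.15) and 0.50 (adjusted p = 0.098), and 4 of the 12 fibroblast genes were lower in the first comparison, with a median of -1.18, and 2 in the second, with a median of -1.08. The uncalled members ran from -0.80 for Ctsl to 0.25 for Ctss in the first and from -0.82 for Ctsl to 0.33 for Ctss in the second. Without the 2 libraries that stood apart Ctsb and Ctsl joined the first set, at -0.60 (adjusted p = 5.1e-05) and -0.80 (adjusted p = 0.0098), which made 7 (43.8% of all genes). Ctsa at -0.25 (adjusted p = 0.015), Ctsb at -0.67 (adjusted p = 1.8e-05) and Ctsl at -0.82 (adjusted p = 0.0095) joined the second, which made 8 (39.3% of all genes). With replicate number blocked Ctsl was also lower in both, at -0.80 (adjusted p = 0.0032) in WT CM and -0.82 (adjusted p = 0.003) in KEAP1 KO CM. Ctss was higher under the block in KEAP1 KO CM alone, at 0.33 (adjusted p = 0.018). NRF2 KO/CDDO-Me differed from media/CDDO-Me for Ctsc, at 0.87 ± 0.17 (SE, adjusted p = 0.039), where 0.19% of all genes changed (0.154% higher and 0.0366% lower), and without the 2 libraries that stood apart this was 0.70 (adjusted p = 0.082). The other 9 genes ran from -0.62 for Ctsb to 0.33 for Ctsl. The Ctsc call was also lost without any 1 library of media/CDDO-Me and without NRF2 KO/CDDO-Me replicate 1 or 3. Without replicate 3 alone Ctsc was at 0.70 (limma, adjusted p = 0.26). Between KEAP1 KO/CDDO-Me and WT/CDDO-Me limma called 0 of the 10 genes and 0.0439% of all genes, with values from -0.13 to 0.32 among the 10 genes.

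The sum of the 10 genes and its make-up were also compared, as values without a test. The 10 genes summed to 37768 to 38925 TPM in media/vehicle, 35117 to 35803 in WT/vehicle and 32251 to 33739 in KEAP1 KO/vehicle. With CDDO-Me they summed to 25413 to 27322 TPM in media/CDDO-Me, 18976 to 22185 in WT/CDDO-Me and 19506 to 22637 in KEAP1 KO/CDDO-Me. The share of all TPM was 3.55% in WT/vehicle and 2.03% in WT/CDDO-Me. Ctsb and Ctsd made up 33.6% and 26.5% of that sum in WT/vehicle on average, and 22.3% and 12.3% in WT/CDDO-Me. Ctss went from 16% to 30.6% of the sum and Ctsc from 0.68% to 9.96%. In the replicate 3 libraries of NRF2 KO CM the sum was 18018 TPM with vehicle and 17056 TPM with CDDO-Me. Replicates 1 and 2 of NRF2 KO CM summed to 35287 and 33979 TPM with vehicle and to 23684 and 22612 TPM with CDDO-Me.

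**Figure D4:**
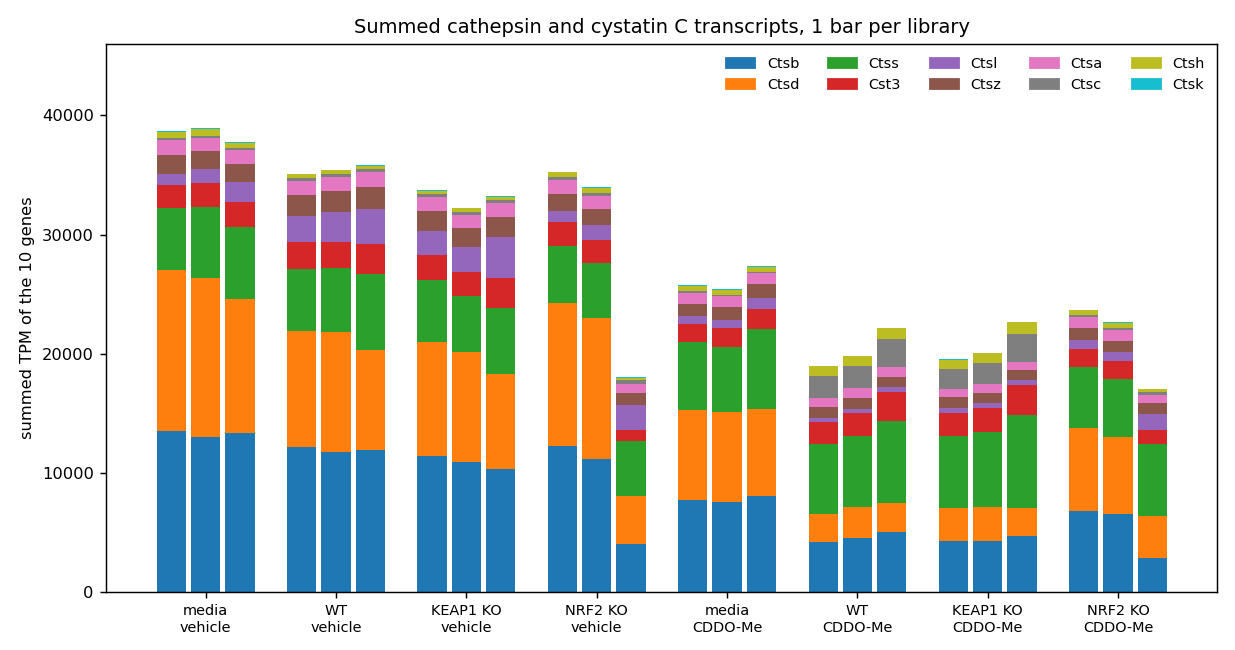
Summed TPM of the 10 genes in each of the 24 libraries, 1 bar per library in groups of 3, stacked by gene. The bars with CDDO-Me are shorter than those with vehicle in control media, WT CM and KEAP1 KO CM. In NRF2 KO CM replicates 1 and 2 are also shorter with CDDO-Me, and replicate 3 is low with both treatments. The Ctsd segment is smallest in WT/CDDO-Me and KEAP1 KO/CDDO-Me, where the Ctsc segment becomes visible.

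The other parts of the cathepsin system were looked at by list. Of 13 other cathepsins 3 were expressed enough to be tested, and in WT CM with CDDO-Me 2 were lower and 1 higher. Of all genes tested 13.4% were lower and 14.5% higher there. Ctsf changed by -0.96 ± 0.21 (SE, adjusted p = 0.0016) and Ctso by -0.38 ± 0.092 (SE, adjusted p = 0.0036). Of 13 other cystatin-family inhibitors 4 were tested. Cst7, cystatin F, which restrains the activation of cathepsin C in immune cells, was at 1.3, 2.13 and 4.27 TPM in media/vehicle and 46.1, 43.0 and 30.8 TPM in WT/vehicle. It rose with WT CM by 3.64 ± 0.41 (SE, adjusted p = 5.3e-06) and with KEAP1 KO CM by 3.52 ± 0.41 (SE, adjusted p = 7.7e-06). With CDDO-Me in WT CM it was at 37.8, 24.0 and 21.8 TPM, with a change of -0.40 ± 0.41 (SE, adjusted p = 0.56).

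The 34 lysosomal hydrolases tested went both ways. In WT CM with CDDO-Me 9 were higher and 9 lower, with a median of -0.21, and in KEAP1 KO CM 8 were higher and 9 lower, with a median of -0.16. Of all genes tested 14.5% were higher and 13.4% lower in WT CM, and 14.5% higher and 14.3% lower in KEAP1 KO CM. Ppt1, a palmitoyl-protein thioesterase, rose by 2.88 (adjusted p = 4e-11) in WT CM, and Fuca1, an alpha-fucosidase, by 1.41 (adjusted p = 1.6e-07). Acp5, the tartrate-resistant phosphatase of osteoclasts, fell, at -2.80 (adjusted p = 4e-08). Of 20 lysosome membrane and proton pump genes 9 were lower and 3 higher in WT CM, and 8 lower and 2 higher in KEAP1 KO CM. The proton pump subunits Atp6v0d2 and Atp6v0a1 fell, at -3.59 (adjusted p = 7.2e-10) and -2.53 (adjusted p = 3.3e-14), as did Cd68, a macrophage lysosome glycoprotein, at -1.41 (adjusted p = 1.4e-06). Of 11 sorting genes and regulators 2 rose and 2 fell in each CM, counts near those shares of all genes. Of those that rose, M6pr, the cation-dependent mannose-6-phosphate receptor, was at 0.67 (adjusted p = 6.5e-06). Gnptab, which makes the mannose-6-phosphate tag, was at 1.08 (adjusted p = 0.0037). The 2 that fell are not named here, and the list had no direction as a whole.

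The MHC class II genes, whose products depend on cathepsins for invariant chain removal, rose with CDDO-Me in both CM. All 10 of 10 were higher in WT CM, with a median of 3.38, and 10 of 10 in KEAP1 KO CM, with a median of 3.64. Of all genes tested 14.5% were higher in each. Ciita, the class II transactivator, was at 4.95 (adjusted p = 8.2e-11), and H2-Ab1 at 4.19 (adjusted p = 1.9e-09). In control media 0 of the 10 were higher and 2 were lower, H2-Eb1 at -1.02 (adjusted p = 0.023) and H2-Aa at -0.87 (adjusted p = 0.036). There 3.23% of all genes were higher and 2.79% lower. The canonical NRF2 targets rose in all 4 media, with 8 of 8 in control media, 7 of 8 in WT CM, 8 of 8 in KEAP1 KO CM and 8 of 8 in NRF2 KO CM. In the same order of media, 3.23%, 14.5%, 14.5% and 4.87% of all genes were higher. Nqo1, a quinone reductase, was at 4.86 (adjusted p = 2.2e-08) in control media and 3.69 (adjusted p = 3e-08) in WT CM.

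Markers of other cell types moved with some of these results. The counts called stand beside 14.5% of all genes higher and 13.4% lower with CDDO-Me in WT CM. In KEAP1 KO CM these shares were 14.5% and 14.3%. The 9 osteoclast genes summed to 769 to 928 TPM in WT/vehicle and 112 to 122 TPM in WT/CDDO-Me, and in KEAP1 KO CM to 660.3 to 824 and 103 to 119.9 TPM. The calcitonin receptor Calcr was at 0 in every library of both WT CM groups, and 4 of the 7 osteoclast genes tested were lower and 1 was higher in WT CM. The 8 dendritic cell genes summed to 5.96 to 6.25 TPM in WT/vehicle and 101 to 128 TPM in WT/CDDO-Me, with 2 of 5 tested higher and 1 lower, and to 50.7 to 87.6 TPM in KEAP1 KO/CDDO-Me. The 12 fibroblast genes summed to 897 to 1901 TPM in WT/vehicle and 368 to 973 TPM in WT/CDDO-Me, with 1 of 12 lower. With the mean of the fibroblast genes as a covariate, the same 8 genes in WT CM and 9 in KEAP1 KO CM were called, with Ctsk at -2.28 (adjusted p = 1.2e-09) and Ctsl at -3.00 (adjusted p = 5.7e-08) in WT CM. The 8 neutrophil genes summed to 10.9 to 34.2 TPM in WT/vehicle and 33.0 to 57.4 TPM in WT/CDDO-Me, and to 15.4 to 24.4 and 64.7 to 72.8 TPM in KEAP1 KO CM. Of the 4 neutrophil genes tested 1 was higher in each, S100a8, at 2.19 (adjusted p = 0.00034) in WT CM and 2.54 (adjusted p = 6.6e-05) in KEAP1 KO CM. The part of the osteoclast, dendritic cell and neutrophil genes in these results was not tested.

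Genes with the most similar pattern were sought for the 6 members whose group means spanned at least 1 log2 unit, by the root mean square difference of centred log2 group means over the 8 groups, where 0 is identical. Nearest to Ctsc were Ifi211 (0.26), an interferon-inducible gene, Cd86 (0.28), a costimulatory ligand of antigen-presenting cells, and Or2v1 (0.31). Nearest to Ctsk were Tns1 (0.088), a focal adhesion protein, Gpr183 (0.18), an oxysterol receptor, and Lhfpl2 (0.20). Nearest to Ctsl were Cd300ld (0.092), Ccn3 (0.19) and Cyp51 (0.20), a sterol demethylase. Myo1e (0.11), Fam219a (0.12) and Ttyh2 (0.13) were nearest to Ctsb. Cfap161, Nicol1 and Nkain1 (0.14 each) were nearest to Ctsd, and Perm1 (0.14), Nap1l2 and Klra17 (0.15 each) to Ctsh. Some of these genes had very low levels, with Cfap161 at a highest group mean of 3.05 TPM and Nap1l2 at 3.00 TPM, where the filter was TPM above 1. Group means of Or2v1, Nap1l2 and Klra17 exceeded 1 TPM only in WT/CDDO-Me and KEAP1 KO/CDDO-Me. In media/vehicle they were 0.31, 0.58 and 0.82 TPM. At such levels the added 1 flattens log2 differences, so their match says little about the other groups.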

How the data were processed

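RNA was measured by poly-A RNA-seq in 24 libraries of mouse BMDMs, 3 for each of 8 groups. The authors quantified transcripts with kallisto against GRCm39 cDNA and deposited gene values whose unit is taken as TPM from their fixed total. These values are named as counts, and a fixed total alone does not show that they are TPM. That total hides depth, so sequencing depth is unknown and no counting interval can be given, and 1 line without a gene name (0.0199% to 0.0635% of TPM) was left out. TPM was divided by TMM scaling factors, 1 was added and log2 taken. A gene was kept if its TPM exceeded 1 in 3 or more libraries (13661 genes). 1 model with 8 group means was fitted with limma 3.58.1 (eBayes with a mean trend, R 4.3.3), with 18 contrasts and 16 residual degrees of freedom, and p-values were Benjamini-Hochberg adjusted over all genes tested at 0.05. The fit was also run on simulated data with independent noise and the same spread of a gene in every group. Those data held no linked replicate numbers and no libraries that stood apart, so they do not check the calls against either. The genes and lists were chosen with earlier results of these data known.

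The rule covered every member in every comparison, and members that were not called are given singly or by their range. Of each other list the examples are up to 4 called genes of mean TPM of at least 5 with the largest change, and the 3 nearest genes were sought for members whose group means ranged over at least 1 log2 unit. Same-numbered libraries deviated together, with a mean correlation of deviations of 0.26 (71 of 84 pairs above 0.1). Deviations were taken from the mean of each group, so the -0.12 for different numbers follows from that value and adds no separate evidence. The mean was highest, at 0.60, between the 2 groups of NRF2 KO CM, which hold the libraries that stood apart. All 3 pairs passed 0.1 for WT/vehicle against media/vehicle, KEAP1 KO/vehicle against WT/vehicle, CDDO-Me in control media and in NRF2 KO CM, and the 4 comparisons between media under CDDO-Me, and block values are given beside those results where they changed a call. No 2 libraries of a group held identical values. The labels do not say what a replicate number stands for. Alternatives changed the scaling, filter, pseudocount, trend, weights, libraries and replicate block.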

Additional observations from a re-analysis of the deposited data

Results flagged for a closer look

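The change with CDDO-Me differed between media for 13 pairs of gene and comparison, by a test of the difference itself (limma, adjusted over all genes tested), and each value is a difference of log2 fold changes. For WT CM minus control media the values were 3.71 for Ctsc, 1.89 for Ctsh, -2.48 for Ctsk and -1.95 for Ctsl. For KEAP1 KO CM minus control media they were 3.52 for Ctsc, 2.01 for Ctsh, -2.08 for Ctsk and -1.86 for Ctsl. For WT CM minus NRF2 KO CM they were 3.54 for Ctsc, 1.69 for Ctsh, -2.63 for Ctsk, -2.12 for Ctsl and -1.21 for Ctsd. Ctsc, Ctsh, Ctsk and Ctsl kept their call under all 24 alternatives of each of these comparisons, whereas Ctsd kept it under 14 of 24. The 3 comparisons are not independent, since they share the WT CM or control media libraries. The 2 NRF2 KO CM libraries with few genes detected belong to groups compared only in the last, but they enter the shared estimate of the spread in all 3.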

How the results depend on the processing

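Over the 180 values of a member in a comparison and their alternatives, 3195 alternative values kept direction and side of the threshold, 66 lost the call, 129 gained one and 90 changed sign. Of these 90, 2 were called, both of Ctsd for KEAP1 KO/vehicle against NRF2 KO/vehicle. Of the counts of members called, 289 stayed within 1.5 times the reported count and 59 did not. For CDDO-Me in WT CM and in KEAP1 KO CM, no alternative moved the count of 8 or 9 by more than that. Sequencing depth is unknown, so what it limits could not be assessed. Where no cause is named, the cause was not tested.

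The share of all genes called under the same setting follows each count. For WT/vehicle against media/vehicle (3, 7.23%) the count was 7 with array weights (30.1%), 5 without the 2 libraries with fewest genes detected (18.8%) and 5 with only the groups' libraries (16.7%). For KEAP1 KO/vehicle against media/vehicle (2, 8.06%) these settings gave 6 (36.7%), 6 (21%) and 6 (17.9%). For WT/vehicle against NRF2 KO/vehicle (2, 10.6%) it was 1 with RLE scaling (10.3%), no scaling (10.1%), no filter (5.06%) or no trend (10.2%), 5 with array weights (24.9%), 4 with the fibroblast covariate (20.7%) and 0 with only the groups' libraries (1.35%). For KEAP1 KO/vehicle against NRF2 KO/vehicle (1, 9.03%) it was 4 with array weights (27%) or without the 2 libraries (13.2%), 2 with the fibroblast covariate (16.2%) and 0 with only the groups' libraries (1.07%). For CDDO-Me in control media (1, 6.02%) it was 7 with array weights (25.8%), 5 without the 2 libraries (14.9%) or with only the groups' libraries (13%), and 2 with no scaling (6.65%) or the fibroblast covariate (10.9%). For CDDO-Me in NRF2 KO CM (1, 9.61%) it was 6 with array weights (20.4%), 3 without the 2 libraries (9.55%), 2 with the fibroblast covariate (15.1%) and 0 with only the groups' libraries (1.1%). Against media/CDDO-Me, array weights gave 8 (55.1%) where WT/CDDO-Me had 5 (26.8%) and 9 (44.5%) where KEAP1 KO/CDDO-Me had 5 (22.6%), and leaving out the 2 libraries gave the latter 8 (39.3%). Where NRF2 KO/CDDO-Me had 1 (0.19%), no filter (0.0565%), a pseudocount of 0.1 (0.0732%), leaving out the 2 libraries (0.0811%) and only the groups' libraries (0%) gave 0. Of the differences in the CDDO-Me change, WT CM minus media (4, 15.3%) gave 7 without the 2 libraries (28.3%), and array weights gave 8 (39%) for KEAP1 KO CM minus media (4, 14.8%) and 8 (32.9%) for WT CM minus NRF2 KO CM (5, 13.4%).

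With the replicate block, the paired comparison of CDDO-Me in control media gave 4 called (10.7%). At least 1 same-numbered pair fell under 0.1 for KEAP1 KO/vehicle and NRF2 KO/vehicle against media/vehicle. The same held for WT/vehicle and KEAP1 KO/vehicle against NRF2 KO/vehicle, and for CDDO-Me in WT CM and in KEAP1 KO CM. The mean correlation of same-numbered pairs was still 0.26 for CDDO-Me in WT CM and 0.29 in KEAP1 KO CM. With the replicate block these comparisons gave 5 (18.7%) for WT/vehicle and 2 (16.1%) for KEAP1 KO/vehicle against NRF2 KO/vehicle. KEAP1 KO/vehicle against media/vehicle gave 3 (13.1%), and CDDO-Me gave 9 in each of WT CM (33.7%) and KEAP1 KO CM (35.3%). Beyond the calls given beside the results, the block changed no other call of the paired comparisons.

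Leaving out 1 library at a time gave 1 to 3 called for WT/vehicle against media/vehicle, 1 to 4 for WT/vehicle against NRF2 KO/vehicle (4 without NRF2 KO/vehicle replicate 1), 0 to 2 for KEAP1 KO/vehicle against NRF2 KO/vehicle (2 without NRF2 KO/vehicle replicate 1 or 3), 0 to 4 for CDDO-Me in NRF2 KO CM (4 without NRF2 KO/vehicle replicate 3) and 0 to 1 for NRF2 KO/CDDO-Me against media/CDDO-Me. Among the 4 comparisons of CDDO-Me with vehicle the sign of 5 uncalled values changed. There, leaving out 1 library gave Cst3 values of -0.00777 to 0.25 in KEAP1 KO CM, -0.18 to 0.043 in WT CM and -0.43 to 0.058 in NRF2 KO CM, Ctsh values of -0.29 to 0.13 in NRF2 KO CM and Ctss values of -0.061 to 0.15 in control media. Cst3 in KEAP1 KO CM was also at -0.033 with no scaling, and Ctsh in NRF2 KO CM at 0.017 with the fibroblast covariate. For KEAP1 KO/vehicle against NRF2 KO/vehicle, leaving out 1 library gave -0.0585 to 0.69 for Ctsb, -0.032 to 0.22 for Ctsc, -0.37 to 0.37 for Ctsd and -0.075 to 0.23 for Ctsk. Leaving out the 2 libraries gave -0.0585 for Ctsb, -0.37 for Ctsd and -0.075 for Ctsk, and array weights gave -0.016 for Ctsb and -0.29 (adjusted p = 0.022) for Ctsd. For WT/vehicle against NRF2 KO/vehicle, leaving out 1 library gave -0.084 to 0.17 for Ctsc and -0.23 to 0.50 for Ctsd. Ctsd was at -0.23 without the 2 libraries and -0.19 with array weights, Ctsk at -0.028 with array weights, and Ctsc at -0.065 with the fibroblast covariate and -0.030 with no scaling. Without scaling the median of all genes shifted by -0.12 for CDDO-Me in WT CM and by -0.17 in KEAP1 KO CM.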

Other observations

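Replicate number 3 differed from the other numbers in the same direction across groups for several members. Ctsd was lowest in replicate 3 in 8 of the 8 groups, and Ctsh in 6 of 8. Ctsl and Ctss were highest in replicate 3 in 7 of 8 groups each, and Cst3 in 6 of 8. These counts are values without a test, and what the replicate number stands for was not stated.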
